A study of Mus musculus with 4 samples.

Results

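The genes described here are the nuclear-encoded genes of the mitochondrial respiratory chain, 92 of the 25071 gene symbols counted in the 4 libraries. They were chosen by name, as the symbols that start with Nduf, Uqcr, Cox4i, Cox5, Cox6, Cox7, Cox8 or Atp5, together with Sdha, Sdhb, Sdhc, Sdhd, Cycs and Cyc1, and 7 pseudogene symbols ending in -ps were left out. By role they are 36 subunits of complex I, 8 assembly factors of complex I (Ndufaf genes), 4 subunits of complex II, 9 of complex III, cytochrome c (Cycs), 15 genes of complex IV, Ndufa4 and its relative Ndufa4l2, 15 genes of complex V, and Atp5s and Atp5sl. The name therefore covers a little more than the chain, since the Ndufaf genes and Atp5sl, which GENCODE vM21 calls Dmac2, are not subunits of it. The study used Drop-seq, which captures single cells in droplets and counts each transcript by its unique molecular identifier (UMI), on vaginal epithelium of C57BL/6 mice. The OVX group holds 2 libraries from mice whose ovaries had been removed by surgery, and the WT group holds 2 libraries from mice with their ovaries; no allele or other agent is named for either group, and ages are not given. Each library was a pool of 5 mice, and whether the libraries of a group came from separate pools is unclear. The p-values therefore reflect variation among these 4 libraries alone, which could be technical.

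The respiratory chain passes electrons from NADH (complex I) and succinate (complex II) through complex III and cytochrome c to oxygen at complex IV, and complex V uses the resulting proton gradient to make ATP. Most subunits are encoded in the nucleus, made in the cytosol and imported, while a small core of complexes I, III, IV and V is encoded in mitochondrial DNA (the mt-Nd genes, mt-Cytb, and the mt-Co and mt-Atp genes), so the complexes need products of both genomes. In the rodent vagina ovarian oestrogen drives the basal cells to divide and the epithelium to stratify, and without ovaries the epithelium becomes thin.

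After removal of cells with under 200 detected genes or over 20% mitochondrial UMIs, 1573 and 1907 OVX cells and 2979 and 1987 WT cells were kept. They held 798916 and 1636888 UMIs in OVX and 5830417 and 1930040 in WT. The libraries shared 2 to 15 cell barcodes in pairs. The median mitochondrial share of a kept cell was 8.97% and 9.69% in OVX and 4% and 3.85% in WT. Malat1, a long non-coding RNA kept in the nucleus, made up 2.50% and 1.81% of the UMIs in OVX and 0.336% and 0.465% in WT. Of 23 marker genes of immune, connective tissue, vessel and muscle cells, 21 were in the files. Of these 14 were higher in both OVX libraries than in both WT libraries, against 29.1% of all genes tested. A further 2 were lower in both, against 21.2%. The summed levels of the 21 were 1074 and 689 CPM in OVX and 127 and 169 in WT. At 0 were 7 and 2 of them in OVX and 6 and 3 in WT. Of smooth muscle, Tagln was at 0 in every library, and Acta2 stood at 0 and 1.83 in OVX and 2.92 and 8.29 in WT. Myh11 went the other way, at 1.25 and 1.83 in OVX, on 1 and 3 UMIs, and 0 and 0 in WT. Krt5, a keratin that defines the basal layer of this epithelium, was present in every library, at 2100 and 2954 CPM in OVX and 21650.4 and 5897 in WT. The 10 basal markers counted here did not all move alike. Krt15 was higher in both OVX libraries, at 2566 and 1601 in OVX and 751 and 1008 in WT. Col17a1 and Itgb4 overlapped between the groups, and the rest were lower in both OVX libraries. These differences stand beside every result below, and their part in the results was not tested. Levels are given as CPM, the UMIs of a gene or group of genes scaled to a total of 1000000 UMIs for the cells summed.

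RefSeq promoters of build GRCm38.p6, 250 bases before to 50 bases after the start site, matched 76 of the 92 genes. NRF1 and GABPA are transcription factors known to bind promoters of respiratory chain genes. The core of the NRF1 motif, gcatgcgc on either strand, was present in 13 of the 76 promoters (17.1%), compared with 6.57% of 8017 genes tested for expression and 3.05% of all 27025. The ETS motif of GABPA, ccggaagt, was present in 5 of 76 (6.58%), against 10.5% of tested genes and 4.31% of all. The motif of the oestrogen-related receptors, tcaaggtca, was present in 2 of 76 (Atp5g3 and Sdhd; 2.63%), against 0.274% of tested genes and 0.466% of all. These are matches of letters and not shown to be bound sites, and no match says only that the letters are not in the window. The promoters with the NRF1 core belonged to genes of complex I (Ndufa6, Ndufa8, Ndufa11), its assembly (Ndufaf4, Ndufaf5), complex II (Sdhb), complex III (Uqcrc1, Uqcr11), complex IV (Cox6a1), complex V (Atp5g2, Atp5k, Atp5l) and to Cycs. The 3 promoters printed here, picked after values were seen, show the 3 motifs. Uqcrc1 (chr9:108936398-108936697, plus strand) had the lowest fold change among the subunits, Uqcr11 (chr10:80406772-80407071, minus strand) had an ETS and an NRF1 match, and Atp5g3 (chr2:73911277-73911576, minus strand) had the oestrogen-related receptor match. Capitals mark the matches; in Uqcrc1 the NRF1 core reads on both strands in 1 overlapping stretch of 10 bases, Uqcr11 has the ETS match upstream of the NRF1 match, and the Atp5g3 match reads on the opposite strand.

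Uqcrc1 promoter: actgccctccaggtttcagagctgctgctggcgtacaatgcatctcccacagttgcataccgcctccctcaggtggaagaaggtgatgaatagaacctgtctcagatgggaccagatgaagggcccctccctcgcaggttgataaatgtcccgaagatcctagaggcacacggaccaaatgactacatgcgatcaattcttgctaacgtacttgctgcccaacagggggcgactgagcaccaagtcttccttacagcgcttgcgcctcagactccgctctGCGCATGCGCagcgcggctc
Uqcr11 promoter: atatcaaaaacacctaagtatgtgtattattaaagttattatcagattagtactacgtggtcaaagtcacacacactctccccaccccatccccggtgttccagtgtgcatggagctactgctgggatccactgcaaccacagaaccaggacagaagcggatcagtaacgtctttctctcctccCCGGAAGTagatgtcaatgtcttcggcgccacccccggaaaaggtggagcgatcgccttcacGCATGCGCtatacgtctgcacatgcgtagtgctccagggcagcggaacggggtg
Atp5g3 promoter: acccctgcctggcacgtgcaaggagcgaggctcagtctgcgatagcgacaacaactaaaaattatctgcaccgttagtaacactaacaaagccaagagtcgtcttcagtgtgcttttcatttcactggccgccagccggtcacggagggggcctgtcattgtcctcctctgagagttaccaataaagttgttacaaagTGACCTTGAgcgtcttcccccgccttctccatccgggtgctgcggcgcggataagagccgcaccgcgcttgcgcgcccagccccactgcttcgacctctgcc

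Summed, the 92 genes were lower in both OVX libraries than in both WT libraries, and all 5 complexes were lower on average. Over all kept cells of a library the 92 genes came to 23773 and 19614 CPM in the OVX libraries, against 27298 and 41166 in the WT libraries. The groups did not overlap, but the WT libraries lay further apart from each other than OVX library 1 lay from WT library 1. Their means were 21694 ± 2941 in OVX and 34232 ± 9806 in WT (SD, n = 2 libraries each). The ratio of geometric means, OVX over WT, was 0.644, and the 4 ratios of 1 OVX library over 1 WT library ran from 0.476 to 0.871. An exact two-sided permutation test over the 4 libraries gave p = 0.333, the smallest this design allows. Complexes III, IV and V had ratios of 0.579, 0.609 and 0.581, complexes I and II 0.726 and 0.728, and the complex I assembly factors 0.991. Complexes II, III, IV and V had both OVX libraries below both WT libraries, whereas for complex I OVX library 1 (8947) exceeded WT library 1 (8047). Among cells with 500 to 1000 UMIs, where depth per cell was alike, the summed level was 24062 and 19149 in OVX and 26563 and 41719 in WT, so the order of the libraries was the same. Without WT library 2 the log2 ratio of all members was -0.34, against -0.63 with all 4 libraries. For complex I it was then -0.07, against -0.46, so that its lower level rests on WT library 2. Leaving out each library in turn gave log2 ratios of -0.85 to -0.07 for complex I, -0.63 to -0.28 for complex II, -1.19 to -0.39 for complex III, -0.95 to -0.48 for complex IV and -0.97 to -0.60 for complex V.

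**Figure D1:**
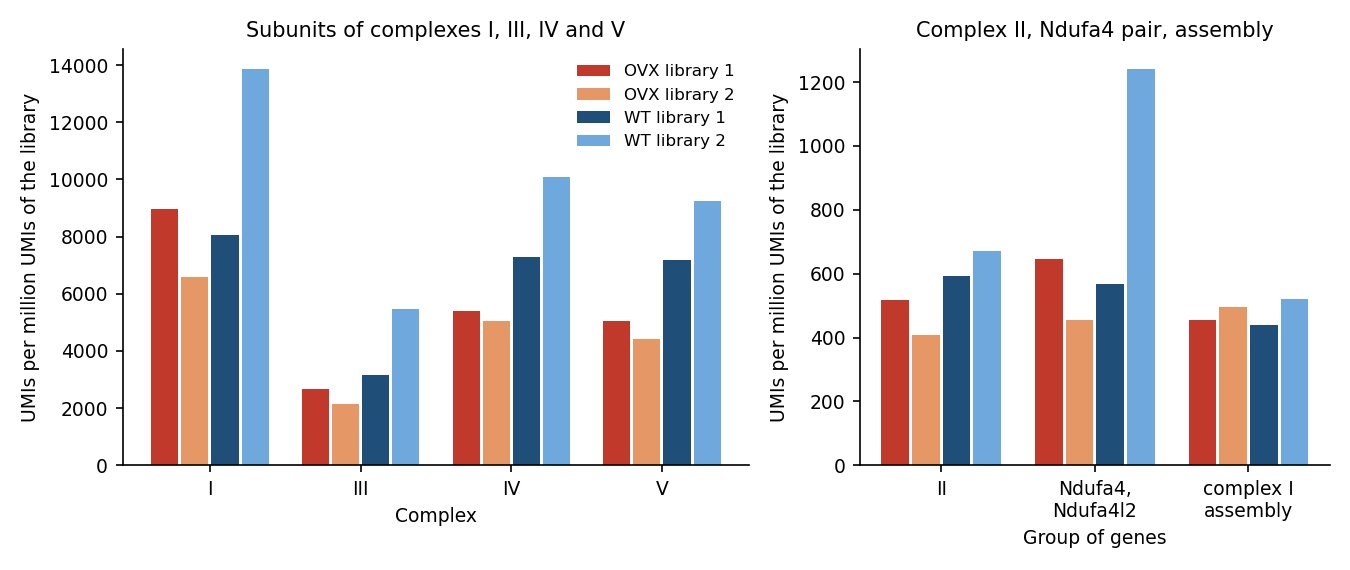
Summed CPM for each complex in all kept cells, 1 bar per library and OVX bars left of WT bars. WT library 2 stands highest for every complex, and the OVX bars of complexes II, III, IV and V lie below both WT bars.

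Gene by gene, most members had a small negative fold change, and only Ndufa4l2 passed the test in all kept cells. Of the 92 genes 88 had enough UMIs to be tested; Cox4i2, Cox6a2, Cox6b2 and Cox7a1 had not. With edgeR's quasi-likelihood test and Benjamini-Hochberg adjustment over all 11495 genes tested, 1 of the 88 passed the threshold of 0.05, against 5.11% of all genes tested. The 1 call was lower in OVX, where 2.52% of all genes were called, and 0 were higher, where 2.58% were. At an unadjusted p under 0.05 the count was 21 of 88, against 20% of all genes. The fitted log2 fold change, OVX over WT, was below 0 for 83 of 88, against 51.4% of all genes, and its median was -0.78, against -0.03 over all genes. Both OVX libraries lay below both WT libraries for 40 of 88, against 21.2% of all genes, and above both for 4, against 29.1%. The 5 tested genes with a fold change above 0 were Atp5sl, Atp5s, Ndufaf2, Cox7a2l and Ndufaf1, none past the threshold, and are named here after their values were seen. When libraries were scaled by their nuclear UMIs alone, the median of all genes moved up by 0.22 on the log2 scale. The members' median relative to all genes was then -0.74, against -0.75 with the scaling used elsewhere, and 76 of 88 were below 0. A change of scaling moves all genes almost alike, so the relative median was bound to stay and is no test. DESeq2 called 3 members (Ndufa4l2, Uqcrc1 and Uqcrq). The share of all genes that DESeq2 called is not given here. The count of calls depended on which WT library was left out. Such a fit leaves 1 library in the WT group, so its counts are not given. Atp5g1 took opposite directions without WT library 1 and without WT library 2.

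**Figure D2:**
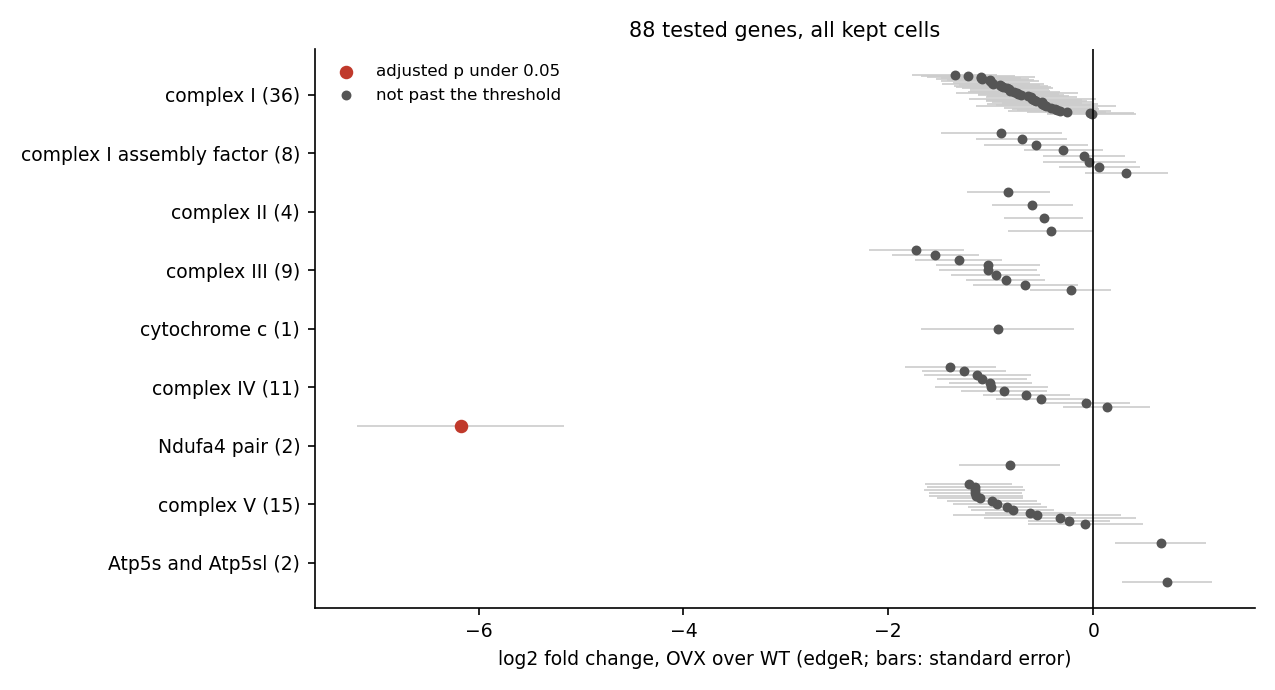
Fitted log2 fold change of each of the 88 tested genes in all kept cells, OVX over WT, by role, with standard errors as bars. Ndufa4l2, in red at -6.17, is the only gene past the threshold, and 83 of 88 points lie left of 0.

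Complex I, the entry point for electrons from NADH, had all 36 tested subunits below 0, with a median log2 fold change of -0.72 and a range of -1.35 to -0.02. By edgeR 0 passed the threshold and 7 of 36 had an unadjusted p under 0.05, near the 20% of all genes, and 14 had both OVX libraries below both WT libraries, against 21.2% of all genes. Ndufc1, an accessory subunit and the member of complex I with the most UMIs, stood at 536 and 349 CPM in the OVX libraries, against 545 and 944 in the WT libraries (log2 fold change -0.90 ± 0.46 SE, edgeR adjusted p = 0.324). OVX library 1 and WT library 1 were almost equal for it, and the difference rests on the other 2 libraries. Ndufb6, an accessory subunit of the membrane arm, had the lowest fold change of the complex, at 159 and 135 CPM in the OVX libraries, against 271 and 408 in the WT libraries (log2 fold change -1.35 ± 0.41 SE, edgeR adjusted p = 0.116). Ndufa9, which lies where the peripheral arm joins the membrane arm, stood at 72.6 and 42.2 CPM in the OVX libraries, against 89.2 and 150.3 in the WT libraries (log2 fold change -1.22 ± 0.46 SE, edgeR adjusted p = 0.187). For Ndufb6 and Ndufa9 the groups did not overlap, and the gap between the groups was narrower than the distance between the WT libraries for both.

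The complex I assembly factors, which help to build the complex and leave it, had summed levels close to each other in the 4 libraries, at 454 and 495 CPM in the OVX libraries, against 441 and 519.7 in the WT libraries. Their median log2 fold change was -0.19, 6 of 8 were below 0, and 0 passed the threshold or an unadjusted p of 0.05 by edgeR. Ndufaf2, a chaperone of late complex I assembly, stood at 160.2 and 209.5 CPM in the OVX libraries, against 154 and 116 in the WT libraries (log2 fold change 0.32 ± 0.41 SE, edgeR adjusted p = 0.715), with both OVX libraries above both WT libraries. Ndufaf1, which acts in building the membrane arm, stood at 31.3 and 28.7 in OVX and 24 and 28.5 in WT, with OVX library 2 and WT library 2 almost equal.

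Complex II, succinate dehydrogenase, is built from nuclear genes alone, and all 4 were below 0, with fold changes of -0.83 to -0.41 and 0 past the threshold or an unadjusted p of 0.05. Sdhb, the iron-sulfur subunit, stood at 224 and 209.5 CPM in the OVX libraries, against 257 and 337 in the WT libraries (log2 fold change -0.59 ± 0.39 SE, edgeR adjusted p = 0.449). Sdhb, Sdhc and Sdhd, the last 2 the membrane anchors, had both OVX libraries below both WT libraries, while for the flavoprotein Sdha OVX library 1 (67.6) lay between WT library 1 (54.9) and WT library 2 (77.2).

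Complex III, which hands electrons from ubiquinol to cytochrome c, had the lowest median of the 5 complexes, -1.03, with all 9 subunits below 0 and 6 lower without overlap, against 21.2% of all genes. By edgeR 0 passed the threshold, and 3 of 9 had an unadjusted p under 0.05, against 20% of all genes. Uqcrc1, a core subunit on the matrix side (chr9:108936633-108949623, plus strand, GRCm38, GENCODE vM21), stood at 228 and 139 CPM in the OVX libraries, against 412 and 682 in the WT libraries (log2 fold change -1.73 ± 0.46 SE, edgeR adjusted p = 0.0799). Both OVX libraries were below both WT libraries by more than the OVX libraries differed, but by less than the WT libraries differed. Uqcrc1 passed the threshold with DESeq2. In the differentiated gate, defined with the gated results, its groups overlapped, at 253 and 136 in OVX and 237 and 427 in WT. In the basal gate its groups did not overlap. Uqcrq, a small subunit that contacts cytochrome b (chr11:53427922-53430831, minus strand), stood at 267 and 212 CPM in the OVX libraries, against 501 and 759.6 in the WT libraries (log2 fold change -1.54 ± 0.43 SE, edgeR adjusted p = 0.0866). Cyc1, cytochrome c1, which passes the electron on, stood at 123 and 80.03 CPM in the OVX libraries, against 185 and 268 in the WT libraries (log2 fold change -1.31 ± 0.43 SE, edgeR adjusted p = 0.133). The hinge subunit Uqcrh had the fold change nearest 0 of the complex, -0.22, and Uqcr11, a small subunit, stood at 523 and 323 in OVX and 482 and 1076 in WT with OVX library 1 above WT library 1 (edgeR adjusted p = 0.311). Its promoter is printed above with those of Uqcrc1 and Atp5g3.

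Cytochrome c, the mobile carrier between complexes III and IV, was counted by few UMIs, and Cycs stood at 28.8 and 17.1 CPM in the OVX libraries, against 12.9 and 66.8 in the WT libraries (log2 fold change -0.93 ± 0.74 SE, edgeR adjusted p = 0.539). WT library 2 stood apart, and both OVX libraries were above WT library 1.

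Complex IV, cytochrome c oxidase, had 10 of 11 tested genes below 0, a median log2 fold change of -0.995 and 6 lower without overlap, against 21.2% of all genes. None of the 11 passed the threshold by edgeR, and 4 had an unadjusted p under 0.05, against 20% of all genes. Cox4i1, the ubiquitous form of subunit IV (chr8:120668222-120674207, plus strand), stood at 861 and 749.6 CPM in the OVX libraries, against 1603 and 1327 in the WT libraries (log2 fold change -1.01 ± 0.41 SE, edgeR adjusted p = 0.219). Its WT libraries were closer to each other than to either OVX library. Cox5a, a subunit of the matrix side, stood at 253 and 178 CPM in the OVX libraries, against 382 and 642 in the WT libraries (log2 fold change -1.39 ± 0.45 SE, edgeR adjusted p = 0.128). For Cox7a2, the form of subunit VIIa named after liver, the CPM values were 338 and 349 in OVX and 637 and 864 in WT (log2 fold change -1.26 ± 0.41 SE, edgeR adjusted p = 0.134). The OVX libraries were almost equal for Cox7a2. Of the other isoform groups, Cox6a1 stood at 635 and 366 in OVX and 612 and 1360 in WT (adjusted p = 0.275), Cox6b1 at 519 and 546 in OVX and 709 and 1064 in WT (adjusted p = 0.301) and Cox8a at 586 and 484 in OVX and 599 and 926 in WT (adjusted p = 0.440), all by edgeR's quasi-likelihood test. The forms known from muscle, lung or testis were at trace level: Cox4i2 had 4 UMIs in all, Cox6a2 4, Cox7a1 11, and the testis form Cox6b2 43. Cox7a2l, known for a role in supercomplexes of complexes III and IV that was not examined here, was the exception among these genes. It stood at 312 and 468 CPM in the OVX libraries, against 367 and 285 in the WT libraries (log2 fold change 0.13 ± 0.43 SE, edgeR adjusted p = 0.903). Its groups overlapped.

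Ndufa4l2 was the only member past the threshold, and it met the filter on low counts through the WT libraries alone. It encodes a relative of Ndufa4 known as a target of the hypoxia-inducible factor HIF-1 that lowers respiration, and it lies at chr10:127514967-127517154, plus strand (GRCm38, GENCODE vM21). It was counted with 1 and 0 UMIs in the OVX libraries, against 116 and 85 in the WT libraries. That is 1.25 and 0 CPM in OVX, against 19.9 and 44 in WT. Both OVX libraries were at or near 0. The pooled level was 0.411 CPM in OVX and 25.9 in WT. The ratio, WT over OVX, was 63.1 with an exact 95% interval of 11.2 to 2504, which covers counting error only (edgeR adjusted p = 0.0152). By gate, a range of marker UMIs defined with the gated results, it had 1 and 0 UMIs in OVX and 64 and 41 in WT in the basal gate, 0 and 0 UMIs in OVX and 13 and 15 in WT in the stratified gate, and 0 and 0 UMIs in OVX and 39 and 29 in WT in ungated cells. Set against the 3 counts over the group that a count of 0 allows, the pooled OVX level was at least 9.09-fold lower in ungated cells. In the stratified gate OVX had too few UMIs in all for its count of 0 to show a difference, with a bound of 1.04-fold. Within WT its level was 14 and 34.2 CPM in the basal gate and 50.5 and 88.1 in the stratified gate. Ndufa4, known as a subunit of complex IV despite its name, stood at 643 and 455 CPM in the OVX libraries, against 547 and 1197 in the WT libraries (log2 fold change -0.81 ± 0.49 SE, edgeR adjusted p = 0.408). The groups overlapped for it.

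Complex V, ATP synthase, had all 15 genes below 0, with a median log2 fold change of -0.94 and 10 lower without overlap, against 21.2% of all genes. None of the 15 passed the threshold by edgeR, and 6 had an unadjusted p under 0.05, against 20% of all genes. Atp5j, coupling factor 6 of the stator stalk, stood at 543 and 382 CPM in the OVX libraries, against 644 and 1221 in the WT libraries (log2 fold change -1.16 ± 0.47 SE, edgeR adjusted p = 0.220). The 3 genes that encode the same c subunit of the membrane rotor differed from one another. Atp5g3 stood at 229 and 276 CPM in the OVX libraries, against 639 and 429.5 in the WT libraries (log2 fold change -1.22 ± 0.43 SE, edgeR adjusted p = 0.164), with no overlap, and Atp5g2 was rare, at 10.01 and 6.72 in OVX and 6.17 and 9.84 in WT, with 99.1% of the 50-base words of its last 500 bases found in other genes. Atp5g1 stood at 329 and 146 CPM in the OVX libraries, against 75.1 and 550.2 in the WT libraries (log2 fold change -0.55 ± 0.82 SE, edgeR adjusted p = 0.763). Both OVX libraries lay between the WT libraries. For Atp5g1 the fold change was -1.38 without WT library 1 and 1.43 without WT library 2, each past the threshold (edgeR adjusted p = 0.0269 and 0.0370). The alpha subunit Atp5a1 and the beta subunit Atp5b, which carries the catalytic sites, had fold changes of -0.94 and -0.79, at 342 and 389 in OVX and 780.0 and 498 in WT for Atp5a1 and 493 and 343 in OVX and 606 and 697 in WT for Atp5b, without overlap, and are named for their role after values were seen. Atpif1, the inhibitor of the ATPase and not a member, stood at 1352 and 1152 in OVX and 1458 and 1934 in WT (edgeR adjusted p = 0.490). Atp5s and Atp5sl, which carry the name of ATP synthase, had both OVX libraries above both WT libraries, at 25 and 24.4 in OVX and 11.8 and 17.1 in WT for Atp5s and 21.3 and 30.5 in OVX and 15.1 and 14 in WT for Atp5sl, with edgeR adjusted p of 0.458 and 0.413.

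The mitochondrially encoded partner genes had fold changes mostly above 0. Of the mt- symbols 28 were in the files, 10 of them protein-coding, 8 of which were tested. The other 2, mt-Co2 and mt-Co3, had 0 to 2 UMIs a library. The symbols mt-Atp6, mt-Atp8 and mt-Nd4l were not in the files, so sums and ratios of the mitochondrially encoded mRNAs lack them. By fold change 6 of the 8 were above 0, the median was 0.56 and 0 passed the threshold or an unadjusted p of 0.05 by edgeR. Summed, they came to 12197 and 11028 CPM in the OVX libraries, against 6676 and 12246 in the WT libraries, and the groups overlapped because WT library 2 was the highest. The mt-Nd genes, the core of complex I, came to 6852 and 7450 CPM in the OVX libraries, against 4467 and 6385 in the WT libraries, mt-Cytb of complex III to 4290 and 2723 in OVX and 1990 and 4944 in WT, and mt-Co1 of complex IV to 1055 and 855 in OVX and 218 and 917 in WT. In mt-Co1 WT library 1 was the lowest of the 4 libraries. The 2 ribosomal RNAs, mt-Rnr1 and mt-Rnr2, had fold changes of 1.37 ± 0.44 and 1.27 ± 0.48 SE with no overlap, and neither passed (edgeR adjusted p = 0.129 and 0.194). For mt-Rnr2 the CPM values were 77221 and 83067 in OVX and 33872 and 26449 in WT. Of 9 tested transfer RNAs 3 were called higher in OVX, against 2.58% of all genes. These were mt-Ta, mt-Tq and mt-Tv, with fold changes of 2.96, 2.41 and 3.19 (edgeR adjusted p = 0.0316, 0.0339 and 0.0434). They rest on few UMIs. The counts were 10 and 28 in OVX and 9 and 4 in WT for mt-Ta, and 18 and 55 in OVX and 29 and 9 in WT for mt-Tq. For mt-Tv they were 10 and 67 in OVX and 13 and 7 in WT. The CPM values were 12.5 and 17.1 in OVX and 1.54 and 2.07 in WT for mt-Ta, 22.5 and 33.6 in OVX and 4.97 and 4.66 in WT for mt-Tq and 12.5 and 40.9 in OVX and 2.23 and 3.63 in WT for mt-Tv, without overlap. Without OVX library 2, or in cells of 500 to 1500 UMIs, 0 of the mt- genes were called by edgeR. Cells were kept by their share of mt- UMIs, and 3 mt- genes were also called without that limit.

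Set against each other within a library, nuclear and mitochondrial transcripts gave ratios that did not overlap between the groups. UMIs of the 92 genes per UMI of a mitochondrially encoded mRNA stood at 1.95 and 1.78 in the OVX libraries, against 4.09 and 3.36 in the WT libraries, a fold of 0.502 OVX over WT (exact two-sided permutation p = 0.333, the smallest possible with 4 libraries). This ratio does not depend on library size, and leaving out any library gave folds on the log2 scale of -1.13 to -0.85, with -0.99 over all 4. Complex I subunits per mt-Nd UMI stood at 1.31 and 0.882 in the OVX libraries, against 1.80 and 2.17 in the WT libraries, complex III per mt-Cytb UMI at 0.623 and 0.790 in the OVX libraries, against 1.58 and 1.10 in the WT libraries, and complex IV per mt-Co1 UMI at 5.12 and 5.89 in the OVX libraries, against 33.4 and 11 in the WT libraries. Of the end of mt-Co1 95.3% is shared with other genes, so its count is uncertain; mt-Cytb has 0% shared. All 3 ratios were lower in both OVX libraries, and the mt-Co1 ratio of WT library 1 stood far above the rest. The ratio of all members took the same order in the basal gate (1.92 and 1.81 in the OVX libraries, against 4.09 and 3.28 in the WT libraries) and in the stratified gate (1.87 and 1.48 in the OVX libraries, against 3.81 and 3.39 in the WT libraries).

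**Figure D3:**
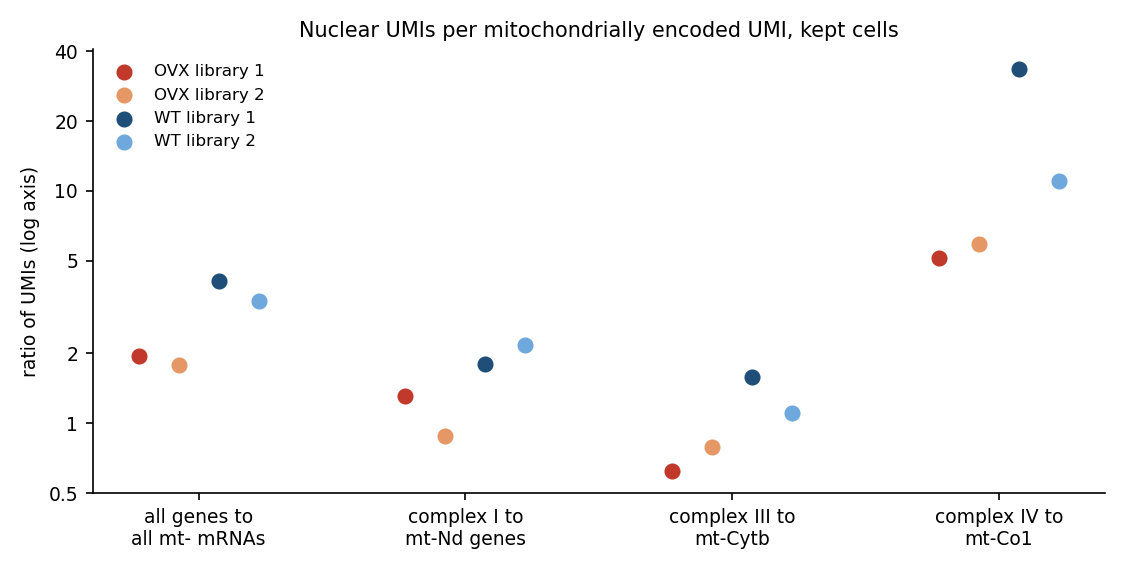
Ratio of UMIs of nuclear-encoded to mitochondrially encoded genes in kept cells on a log axis, 1 point per library and OVX left of WT, for all genes and for complexes I, III and IV. In all 4 ratios both OVX points lie below both WT points.

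Other mitochondrial gene lists also had medians below 0, with 0 of 189 tested genes past the threshold by edgeR in the 7 lists together, against 5.11% of all genes, and 5 called by DESeq2. At an unadjusted p under 0.05 the counts were 4 of 20 genes of the tricarboxylic acid cycle and pyruvate dehydrogenase, 4 of 10 carriers and channels, 13 of 77 genes of the mitochondrial ribosome and 1 of 21 of protein import. They were 1 of 12 matrix chaperones and antioxidants, 3 of 33 further assembly factors and 1 of 16 regulators, beside 20% of all genes. Median log2 fold changes were -0.86 for carriers, -0.71 for the mitochondrial ribosome, -0.65 for the tricarboxylic acid cycle and -0.49 for import. They were -0.36 for chaperones, -0.23 for regulators and -0.18 for assembly factors, beside -0.78 for the respiratory chain. The further assembly factors, like those among the members, had a median nearer 0 than the other lists; that difference was not tested. The tricarboxylic acid cycle and the carriers differed little between libraries of a group, at 1709 and 1655 CPM in the OVX libraries, against 2567 and 2420 in the WT libraries for the cycle and 1899 and 1909 in OVX and 3300 and 3412 in WT for the carriers. Cytosolic ribosomal protein genes, another abundant housekeeping group, stood at 100630 and 112254 CPM in the OVX libraries, against 78639 and 103381 in the WT libraries.

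Cells were gated by UMIs of marker genes that are not members. There was a basal gate (10 genes such as Krt5 and Krt14), and a differentiated gate was made of a stratified gate (13 genes such as Krt10 and Krtdap) and a luminal gate (11 genes such as Krt8 and Krt18). A gate is a range of marker UMIs and not a cell type. At least 2 panel UMIs were needed, and a basal cell had 4 times as many basal as differentiation UMIs. The basal gate held 904 and 1259 OVX cells and 2388 and 1233 WT cells. Of these 384 and 253 in OVX and 0 and 19 in WT had at most 4 panel UMIs and so lay near its edge. The differentiated gate held 145 and 166 OVX cells and 118 and 177 WT cells, with 54 and 36 in OVX and 0 and 2 in WT near its edge. Of its cells 120 and 125 in OVX and 0 and 1 in WT were luminal, so it sets mostly luminal OVX cells against stratified WT cells. In the basal gate the 92 genes summed to 23401 and 19517 CPM in the OVX libraries, against 27221 and 40918 in the WT libraries, close to the levels of all kept cells. The fold change was below 0 for 79 of 88 tested genes, against 52.1% of all genes, with a median of -0.73, against -0.04. The threshold was passed by 1 gene, Ndufa4l2, against 3.98% of all genes in either direction, 2.38% lower and 1.61% higher. Its basal fold change was -5.02 (edgeR adjusted p = 0.0415, and 0.216 without OVX library 2). An unadjusted p under 0.05 was reached by 17, against 18.1%. Both OVX libraries were below both WT libraries for 43 of 88, against 23.4%, and above both for 4, against 25.8%. In the differentiated gate the sum was 25511 and 20660 CPM in the OVX libraries, against 26899 and 41492 in the WT libraries. There 68 of 76 tested genes were below 0, against 52.4%, with a median of -0.67, against -0.05. With edgeR 0 passed, against 8.15% of all genes, 3.45% lower and 4.71% higher, and DESeq2 called 0. Ndufa4l2 had too few UMIs to be tested there. An unadjusted p under 0.05 was reached by 6, against 20.5%, and 30 had both OVX libraries below both WT libraries, against 23.1%, and 2 above both, against 27.5%. By complex the ratios of summed levels, OVX over WT, ran from 0.579 (complex V) to 0.726 (complex I) in the basal gate, and from 0.603 (complex V) to 0.852 (complex II) in the differentiated gate. Within OVX the luminal gate stood at 25589 and 21299 CPM and the basal gate in the same libraries at 23401 and 19517, so the luminal cells were slightly higher in both.

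**Figure D4:**
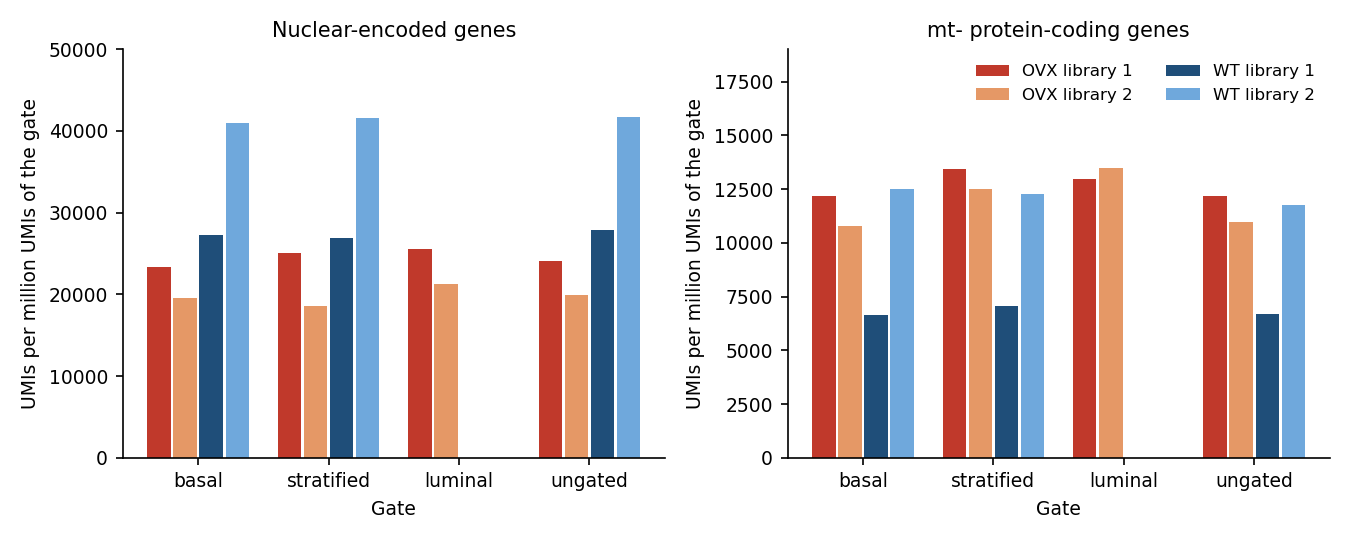
Summed CPM for the 92 nuclear-encoded genes and for the mt- protein-coding genes, by gate and library, OVX bars left of WT bars; the luminal gate of WT, with 0 and 1 cells, is not drawn. The order of the 4 libraries is the same in the basal, stratified and ungated cells for the nuclear-encoded genes.

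Ndufa4 was the 1 member called for a difference between the gates in its OVX to WT fold change, by the interaction of gate and group with the library as a block in edgeR. Of 84 genes tested, 1 passed, against 6.17% of all genes, and 4 had an unadjusted p under 0.05, against 16.7%. The difference, differentiated minus basal, was below 0 for 52 of 84, against 50.8%. Ndufa4 stood at 1034 and 678 CPM in the differentiated gate of OVX, against 466 and 1218 in WT, and at 541 and 408 in the basal gate of OVX, against 548 and 1208 in WT. The log2 fold change was higher in the differentiated gate by 0.78 ± 0.19 SE (edgeR adjusted p = 0.00136). Most of its OVX UMIs in the differentiated gate came from luminal cells (76 and 85 UMIs). Ndufa4 stood at 1028 and 751 in the luminal gate of OVX and at 1067 and 437 in its stratified gate, where it rests on 14 and 15 UMIs. With the stratified gate alone in place of the differentiated gate, a comparison chosen after the data were seen, the difference was -0.09 (edgeR adjusted p = 0.960), and the 1 member called was Ndufa2. With gates made from keratins alone it was 0.35 (edgeR adjusted p = 0.584), and with stricter gates 0.70 (edgeR adjusted p = 0.103), with 0 members called in both. The call was also lost without WT library 1 (edgeR adjusted p = 0.201).

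The 2 libraries of each group differed from each other in 1 direction for most members. WT library 2 exceeded WT library 1 for 73 of 88 genes, with a median log2 difference of 0.73, against 0.03 over all genes, and OVX library 1 exceeded OVX library 2 for 73 of 88, with a median of 0.35, against 0.09. For 68 of 88 both held. In each group the library that was higher for most members had fewer UMIs. Its median UMIs a kept cell were 435, against 738, in OVX and 799, against 1597, in WT. The part of depth in these differences was not tested. Across the 88 genes the 2 differences had a Spearman correlation of 0.745 and a Pearson correlation of 0.716, and across all 11495 genes 0.571 and 0.571. Genes are not independent replicates. Over all genes both differences were larger for short transcripts (Spearman -0.503 and -0.401 with transcript length over 11307 genes), and the members' median transcript was short, 963 bases, against 2682. Over the 88 members the correlations with length were -0.253 for the WT libraries and -0.032 for the OVX libraries. The part of transcript length in the members' differences was not tested. The spread was widest in Atp5g1, Atp5l, Cycs and Ndufb4, at 71.3 and 49.5 in OVX and 19.4 and 119 in WT for Atp5l and 245 and 128 in OVX and 83.5 and 380.3 in WT for Ndufb4, all 4 lowest in WT library 1. These genes were picked after their values were seen, and 75.2% of the end of Atp5l is shared with other genes. Members with no shared end sequence (57 genes) had a median difference between the WT libraries of 0.63 and those with over 40% shared (7 genes) of 1.35.

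**Figure D5:**
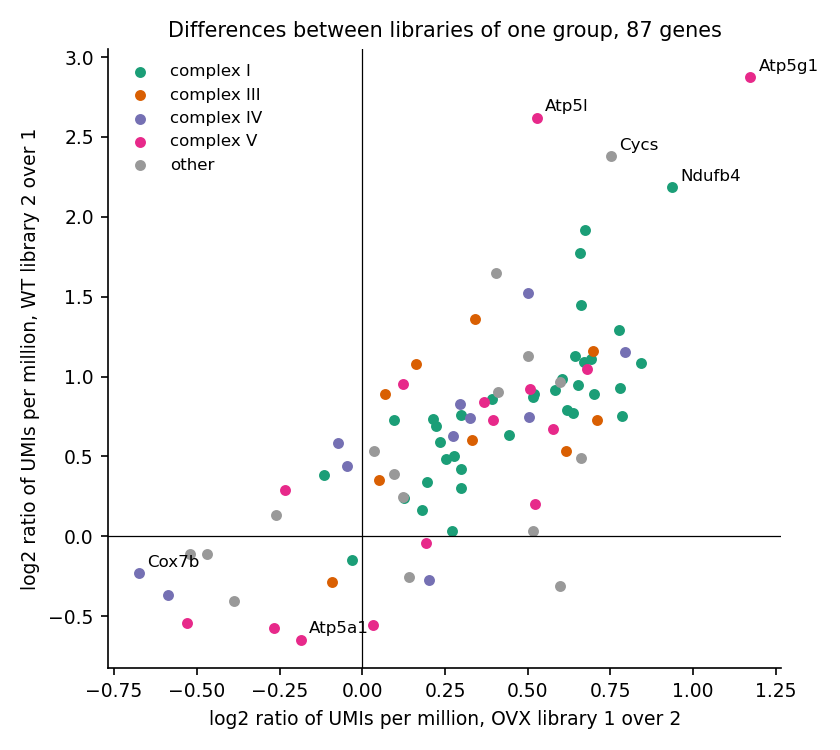
Log2 ratio of CPM between the OVX libraries (1 over 2, horizontal axis) and between the WT libraries (2 over 1, vertical axis) for 87 genes with over 3 UMIs in every library. Most points lie in the upper right, with Atp5g1 farthest out at 1.17 and 2.87.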

How the data were processed

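Each library was deposited as a matrix of whole-number UMI counts, genes by cell barcodes (3000 and 2000 barcodes in OVX, 3000 and 2000 in WT), and the values show no normalization by the authors. Kept UMIs ran from 798916 to 5830417 a library. Per the submitters' processing notes the build mm10 and Seurat 2 were used; which aligner, annotation and barcode rule were used is not given in the sources used here. Counts were summed per library over the 8446 kept cells and over gates, and the sums tested with edgeR 4.0.16 in R 4.3.3, with TMM factors, genes kept by filterByExpr and the quasi-likelihood test of OVX against WT. There were no covariates, p-values were adjusted by Benjamini-Hochberg over all genes tested with a threshold of 0.05, and standard errors were derived from the F statistic. DESeq2 1.42.0, other normalizations, filters, gates and left-out libraries were alternatives. In simulated counts for the comparison of all kept cells, with 11495 genes and 200 changed, the test recovered 111 at 4-fold and 0 at 2-fold, right in direction for 200 and 192 genes. Every simulated gene had the same dispersion, 0.111, and was drawn independently, so power in the real data may differ. No doublet caller was run, and doublets remain. Positions, lengths and shared ends are from GENCODE vM21 (GRCm38); the last 500 bases were cut into 50-base words. Genes with near-identical copies are uncertain. The members and lists were chosen with earlier results of these data known. Values of 1 member are not reported here on its own. Named genes were those past the threshold, the member with most UMIs and the isoform groups of each complex, the 10 largest fold changes and the mt- genes.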

Additional observations from a re-analysis of the deposited data

Results flagged for a closer look

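Ndufa4 differed between the gates in its response by a test of the difference itself. Its log2 fold change, OVX over WT, was higher in the differentiated gate than in the basal gate by 0.779, with 1034 and 678 CPM in OVX and 466 and 1218 in WT in the differentiated gate. In OVX 82.8% and 75.3% of the cells of that gate were luminal, against 0% and 0.565% in WT, so the gate and the kind of differentiated cell cannot be told apart in it. The alternatives gave differences of -0.09 to 0.89, with adjusted p of 9.77e-04 to 0.960 by edgeR.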

How the results depend on the processing

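The summed levels, in all and per complex, and the ratio to mitochondrial mRNAs kept their direction and moved by less than the spread between libraries under each alternative run for them, though complex I came near 0 without WT library 2 (-0.07 on the log2 scale). Counts of called genes did not. Leaving out 1 library in turn gave 1 to 29 called members in kept cells (1 with all 4), 0 to 25 in the basal gate (1), 0 to 9 in the differentiated gate (0), 0 to 1 for the interaction (1), 0 to 10 mt- genes (3) and 0 to 25 genes of the other mitochondrial lists (0). DESeq2 called 3 members in kept cells, 2 in the basal gate, 6 mt- genes and 5 genes of the other lists. With no filter on low counts these were 4, 2, 7 and 6, and 1 in the differentiated gate (Ndufa4l2). In cells of 500 to 1500 UMIs 0 members were called in the basal gate and 0 mt- genes. The stricter gate gave 0 calls in the basal gate, where Ndufa4l2 was then not tested, and 0 for the interaction. The keratin gate gave 0 for the interaction. Ndufa4l2 was called in kept cells under all 13 alternatives. Same-numbered libraries deviated in opposite directions (correlation -0.566 over 11495 genes), so the numbers do not pair them. With the replicate block by label number the counts were 1 member in kept cells, 1 in the basal gate, 0 in the differentiated gate, 4 mt- genes and 0 of the other lists. A crossed pairing set WT library 1 with OVX library 2 and WT library 2 with OVX library 1. It was chosen after seeing the data and gave replicate block counts of 42, 34, 14, 11 and 59. That pairing takes up the differences seen between libraries of a group, so the counts were bound to rise and are no test. Atp5g1 had a log2 fold change of 1.43 without WT library 2 and -1.38 without WT library 1, against -0.55 with all 4; the cause was not tested. With 2 libraries a group, simulated 2-fold changes gave 0 calls, so a small fold change without a call does not show that levels were alike.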

Other observations

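The lower share of respiratory chain UMIs in OVX was seen in the typical cell as well as in the sums. The median cell gave 2.30% and 1.90% of its UMIs to the 92 genes in OVX and 2.69% and 4.12% in WT. The quartiles were 1.76 to 2.86% and 1.49 to 2.32% in OVX and 2.36 to 3.05% and 3.53 to 4.71% in WT. The quartile ranges of OVX library 1 and WT library 1 overlapped.

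The factors whose motifs were counted in the promoters were themselves counted by few UMIs, and none passed the threshold by edgeR's quasi-likelihood test. In CPM, Nrf1 stood at 20.03 and 13.4 in OVX and 15.1 and 14 in WT (adjusted p = 0.982), and Tfam, which packages and transcribes mitochondrial DNA, at 68.8 and 72.7 in OVX and 70.3 and 56 in WT (adjusted p = 0.979). Gabpa stood at 26.3 and 37.9 in OVX and 68.1 and 39.9 in WT (adjusted p = 0.337) and the oestrogen-related receptor gene Esrra at 6.26 and 16.5 in OVX and 32.4 and 9.84 in WT (adjusted p = 0.490), in both with WT library 1 apart from the rest. The coactivator Ppargc1b stood at 27.5 and 25 in OVX and 11.8 and 7.77 in WT (adjusted p = 0.178), with both OVX libraries above both WT libraries. These genes were picked from the list of regulators after their values were seen.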
